A study of Mus musculus with 8 samples.

Results

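The genes that encode the proteins of the cytosolic ribosome were read in islets of the pancreas on 8 arrays, 1 per mouse, from 4 Fzd9 WT and 4 Fzd9 KO animals. A gene was a member when a probe set named it alone and its symbol had the form of a ribosomal protein gene (Rpl, Rps, Rplp or Rpsa), leaving out pseudogenes and the Rps6k kinases. Each gene was read from its brightest probe set over the 8 arrays. This gave 67 of 22180 genes, 42 of the large subunit and 25 of the small subunit by symbol, among 41345 probe sets. All mice were C57Bl/6 and carried MycER, a Myc protein that tamoxifen switches on, and BclXL, which protects cells from apoptosis, both driven by insulin promoters and so limited to β-cells. All received tamoxifen for 3 d at an age of 8 to 12 wk, and the genotypes differed in Fzd9, a Wnt receptor that is absent from every cell of the KO mice. The methods describe a pool of about 20 to 40 isolated islets per mouse, while the sample labels call the tissue insulinoma. Males and females were used, and the labels do not say which mouse was which.

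The cytosolic ribosome has a small subunit, which decodes the mRNA, and a large subunit, which joins the amino acids. Its proteins are made in near-equal numbers, and in mammals most are encoded by 1 working gene with many processed pseudogenes, copies of the mRNA inserted elsewhere in the genome. Myc raises the output of ribosomal RNA and of ribosomal protein genes in many cell types. Most ribosomal protein mRNAs begin with a run of pyrimidines at the 5′ end, the TOP motif, through which mTORC1 controls their translation. In β-cells this machinery serves the synthesis of insulin.

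Windows around the starts are shown for the genes on which the results turn, Rpl5, Rps23, Rpl34 and Rpl39l, and for 4 others, Rps6, Rpl28, Rpl38 and Rpl15, which were picked as examples with a long pyrimidine run. The windows come from RefSeq (GRCm38.p6), with 40 bases before the listed start and 20 from it. Capitals mark the unbroken pyrimidine run that begins at the listed start.
Rpl5, chr5:107900488-107900547, plus strand: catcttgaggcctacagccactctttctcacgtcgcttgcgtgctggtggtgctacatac
Rps23, chr13:90923082-90923141, plus strand: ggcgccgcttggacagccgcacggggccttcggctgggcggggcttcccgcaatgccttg
Rpl34, chr3:130730379-130730438, minus strand: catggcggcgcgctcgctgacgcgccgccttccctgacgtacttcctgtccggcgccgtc
Rpl39l, chr16:10170188-10170247, plus strand: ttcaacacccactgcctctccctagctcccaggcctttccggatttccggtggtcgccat
Rps6, chr4:86857348-86857407, minus strand: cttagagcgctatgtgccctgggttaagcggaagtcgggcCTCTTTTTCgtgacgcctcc
Rpl28, chr7:4792925-4792984, plus strand: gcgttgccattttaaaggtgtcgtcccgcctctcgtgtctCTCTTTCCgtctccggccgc
Rpl38, chr11:114668540-114668599, plus strand: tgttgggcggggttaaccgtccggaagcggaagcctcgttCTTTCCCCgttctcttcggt
Rpl15, chr14:18270967-18271026, minus strand: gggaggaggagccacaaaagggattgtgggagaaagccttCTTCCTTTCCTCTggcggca

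Of the 67 genes, 52 had a start in the table. A start at C followed by at least 4 more pyrimidines was found in 11 of the 52 genes, or 21.2%, against 3.01% of 27025 genes. The letters CTTTC, searched on the gene's strand from 10 bases before to 20 bases after the start, stood in 11 of the 52 genes (21.2%) and in 4.43% of all genes. The listed starts of Rpl5, Rps23, Rpl34 and Rpl39l, shown above, held no such run at their first base, and a listed start can lie some bases from the one used in islets. The E-box CACGTG, a motif bound by Myc with Max that reads the same on both strands, stood within the 250 bases before to 50 bases after a start in 4 of the 52 genes (7.69%) and in 8.09% of all genes. The 4 genes were Rpl34, with the motif at position −155 from the start shown, Rps19, Rpl14 and Rpl19.

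Values are log2 levels after RMA, and each difference is KO minus WT from limma fitted on all probe sets. A gene is called lower or higher only where it passed the cut used by the study, a fold change of 1.2 or more together with an unadjusted p below 0.05. After Benjamini-Hochberg adjustment over all probe sets, 0 of 41345 passed (0%), and limma's adjusted p was 1 for each gene called below. Across all probe sets 1.59% were lower and 1.90% higher in KO islets at the unadjusted threshold. The 95th percentile of the mean levels of 1405 probe sets for olfactory and vomeronasal receptors, which islets are not known to use, was 3.52 and served as a gauge of background. Of the 9 measured islet endocrine genes none lay below it, and their mean level was between 8.23 and 9.17 in the 8 mice. The lowest mean correlations with the other arrays were those of WT mouse 3 and KO mouse 1 (0.897 and 0.893, against 0.917 to 0.926 elsewhere). The highest means of 18 measured acinar genes belonged to KO mouse 1 (7.31) and WT mouse 3 (6.00), against 3.79 to 4.96 in the other mice. In whole islets, fewer cells of a type and less RNA per cell cannot be told apart.

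Most ribosomal protein genes did not pass the threshold. Rpl5 and Rps23 were lower in KO islets, Rpl39l was higher, and the other 64 genes did not pass the threshold. The 2 lower genes were 2.99% of the 67, where 1.17% of all genes were lower, and the 1 higher gene was 1.49%, where 1.28% of all genes were higher. The median log2 fold change was 0.11 (16 genes negative, 51 positive), against −0.0001 over all genes. Of all 22180 genes, 11970 lay at or below the gauge. Above it the median was −0.055 over all genes and 0.11 over the ribosomal protein genes. The median of the 67 genes was 0.0044 without WT mouse 3, 0.036 without KO mouse 1 and 0.055 without WT mouse 2. It was 0.24 without WT mouse 1 and −0.07 without WT mouse 3 and KO mouse 1. The mean level of the 67 genes was 7.03, 6.55, 6.46 and 6.67 in the 4 WT mice and 6.92, 6.77, 6.64 and 6.61 in the 4 KO mice. The groups overlapped, with means of 6.68 ± 0.25 (SD, n = 4) for WT and 6.74 ± 0.14 (SD, n = 4) for KO.

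**Figure D1:**
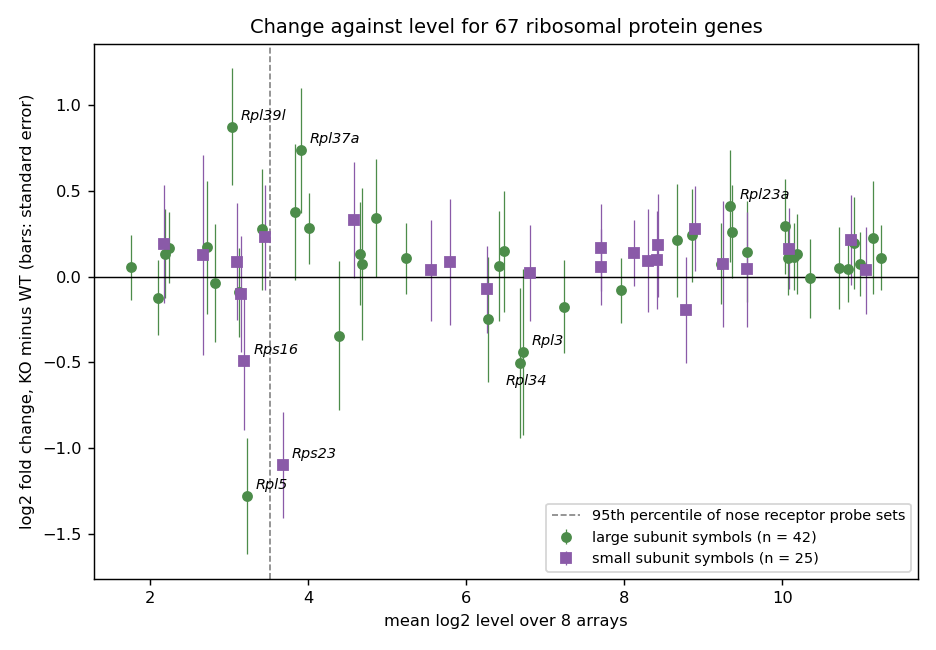
Log2 fold change, KO minus WT, with its standard error (y axis) against the mean log2 level over 8 arrays (x axis) for 67 ribosomal protein genes, with circles for the large and squares for the small subunit. The genes that passed the threshold, Rpl5, Rps23 and Rpl39l, lie at mean levels of 3.22, 3.68 and 3.04, close to the dashed line at 3.52, and the genes to the right of a level of 8 lie between −0.20 and 0.41.

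The calls lay among dim probe sets. Of the 67 genes, 51 had a mean level above the gauge and 16 at or below it, and Rpl5 and Rpl39l were among the 16. Of the 39 genes with a mean level of at least 6, none passed the threshold, and their lowest unadjusted p in limma was 0.233. Among all genes at that level 1.63% were lower and 0.407% higher in KO islets. The log2 fold changes of the 39 genes ran from −0.50 (Rpl34) to 0.41 (Rpl23a), with a median of 0.10 and 31 positive. Over all 2460 genes at that level the median was −0.04, and 1004 had a positive sign. The 28 genes with a mean level of at least 8 had a median of 0.12, and 26 of them had a positive sign without passing the threshold. Among all 327 genes at that level the median was 0.02, and 173 had a positive sign. The mean level of the 28 genes was 10.21, 9.58, 9.27 and 9.73 in WT and 10.06, 9.83, 9.70 and 9.74 in KO islets. All KO means lay inside the WT range. The bright genes varied together from mouse to mouse, as described below, so their signs are not independent of each other.

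Rpl5 showed the lowest log2 fold change of the family. Its protein binds the 5S ribosomal RNA together with Rpl11, and the same complex can bind and block Mdm2, the ligase that degrades p53. The level of Rpl5 was 3.51, 3.79, 4.82 and 3.34 in the 4 WT mice and 2.12, 2.75, 2.46 and 3.00 in the 4 KO mice. Every KO mouse lay below every WT mouse, and WT mouse 3 stood above the others. The means were 3.86 ± 0.66 (SD, n = 4) for WT and 2.58 ± 0.38 (SD, n = 4) for KO, the KO mean being below the gauge. The log2 fold change was −1.28 (standard error 0.34, 95% confidence interval −2.04 to −0.52), with an unadjusted p of 0.0039 in limma. An exact two-sided permutation test gave p = 0.0286, the smallest that 4 against 4 allows. Any gene without overlap gives this p, on the same values that limma used, so it adds no separate evidence. Without WT mouse 3 and KO mouse 1, whose arrays stood apart, the difference passed the threshold at −0.81 (standard error 0.23). Rpl5 was the only 1 of the 67 genes whose KO values all lay below its WT values (1.49%), where 1.11% of all genes had that pattern. None of the 67 had all KO values above all WT values, a pattern of 1.25% of all genes. Rpl11, its partner in the 5S complex, was read below the gauge at 2.84 ± 0.53 (SD, n = 4) for WT and 2.81 ± 0.56 (SD, n = 4) for KO, and its log2 fold change was −0.04 (standard error 0.34).

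Rps23 was the other lower gene. It encodes a protein of the decoding center of the small subunit, near the site where codon and anticodon pair. Its level was 4.54, 4.47, 4.03 and 3.87 in the 4 WT mice and 3.05, 3.97, 2.64 and 2.85 in the 4 KO mice. KO mouse 2 overlapped the WT range and the other 3 KO mice lay below it. The means were 4.23 ± 0.33 (SD, n = 4) for WT and 3.13 ± 0.58 (SD, n = 4) for KO. The KO mean and the KO values of mice 1, 3 and 4 lay below the gauge, and the mean over all 8 mice, 3.68, lay above it through the WT values. The log2 fold change was −1.10 (standard error 0.31, unadjusted p = 0.0054 in limma), and the exact two-sided permutation test gave p = 0.0571. The difference passed the threshold without WT mouse 3 and KO mouse 1 at −1.14 (standard error 0.38) and without KO mouse 2 at −1.38 (standard error 0.25). No other small subunit gene passed, and the median over the 25 was 0.09.

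Rpl34, a large subunit gene that the study measured apart from the arrays, did not pass the threshold. Its own probe set read 7.75, 5.95, 7.17 and 6.88 in the WT mice and 5.40, 6.89, 6.88 and 6.57 in the KO mice. The lowest values were those of KO mouse 1 and WT mouse 2, and the groups overlapped. The means were 6.94 ± 0.75 (SD, n = 4) for WT and 6.43 ± 0.71 (SD, n = 4) for KO. The log2 fold change was −0.50 (standard error 0.44, 95% confidence interval −1.48 to 0.47), with p = 0.4 in an exact two-sided permutation test. It was −0.16 without KO mouse 1, −0.23 without WT mouse 1, −0.83 without WT mouse 2 and −0.08 without WT mouse 3 and KO mouse 1, none of which passed.

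**Figure D2:**
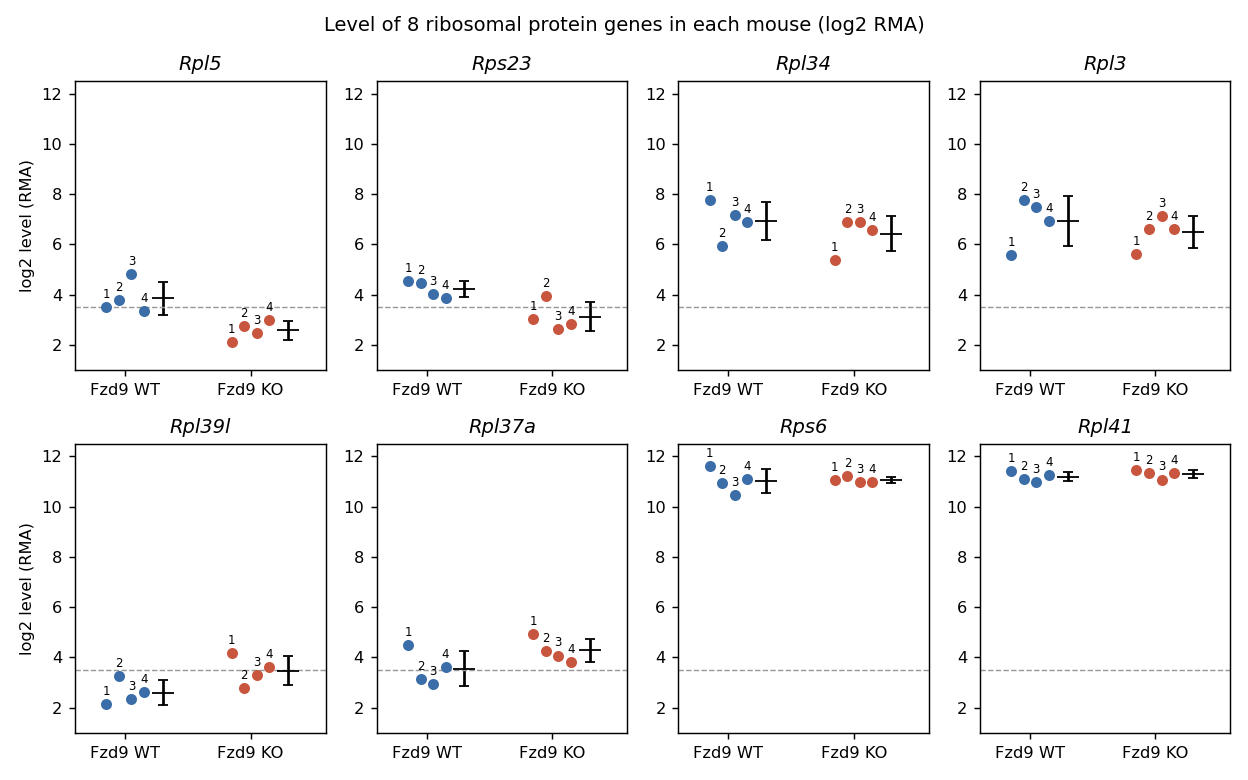
Log2 RMA level (y axis) of 8 ribosomal protein genes in each Fzd9 WT and Fzd9 KO mouse, 1 numbered point per mouse, with the mean and SD of 4 mice beside the points and the background gauge of 3.52 as a dashed line. The KO points of Rpl5 all lie below its WT points. They lie on the background side of the line, as do its points for WT mice 1 and 4 at 3.51 and 3.34. Rps6 and Rpl41 sit between 10.47 and 11.63 in both genotypes.

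The other low fold changes came from genes with a wide spread between mice. Rps16, a protein of the head of the small subunit, was at 3.83, 3.52, 3.73 and 2.68 in WT and at 1.97, 3.61, 3.53 and 2.68 in KO islets. KO mouse 1 was the lowest and the other KO mice overlapped the WT mice. The difference was −0.49 (standard error 0.40), and −0.17 without KO mouse 1. Rpl3, which reaches toward the center where peptide bonds form, was at 5.56, 7.78, 7.49 and 6.93 in WT and at 5.64, 6.61, 7.14 and 6.61 in KO islets. Mouse 1 of both genotypes was the lowest, and the difference was −0.44 (standard error 0.48). Without WT mouse 1 Rpl3 passed the threshold at −0.90, and without WT mouse 3 and KO mouse 1 it was at 0.03. The log2 fold changes of the 4 next lowest genes were −0.34 for Rpl6, −0.25 for Rpl9, −0.20 for Rps3, a protein of the mRNA entry site, and −0.17 for Rpl10a, and none passed.

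Rpl39l was the higher gene, on a dim probe set. It is a copy of Rpl39 known from testis, and both encode a very small protein of the tunnel through which the new peptide leaves. Rpl39l was at 2.15, 3.28, 2.34 and 2.64 in WT and at 4.19, 2.80, 3.29 and 3.63 in KO islets. KO mouse 2 lay below WT mouse 2, and KO mouse 1 was the highest. The means were 2.60 ± 0.49 (SD, n = 4) for WT and 3.47 ± 0.58 (SD, n = 4) for KO, both below the gauge of 3.52. The log2 fold change was 0.87 (standard error 0.34, unadjusted p = 0.0289 in limma), and the exact two-sided permutation test gave p = 0.0571. The call was lost on removal of KO mouse 1 or 4 or of WT mouse 1, 3 or 4, at values between 0.64 and 0.89, and without WT mouse 3 and KO mouse 1 the value was 0.55 (standard error 0.35). Rpl39 itself was at 4.10, 3.77, 3.66 and 3.97 in WT and at 4.20, 3.97, 3.95 and 4.50 in KO islets. Its difference of 0.28 (standard error 0.21) did not pass. A dim probe set listed for Rpl39 together with other genes had the opposite sign, at −0.44 (standard error 0.37), and did not pass either.

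Rpl37a had the highest fold change among the genes that did not pass. This zinc-binding protein of the large subunit was at 4.49, 3.14, 2.93 and 3.62 in WT and at 4.93, 4.27, 4.08 and 3.83 in KO islets, and WT mouse 1 lay inside the KO range. The difference was 0.73 (standard error 0.37, unadjusted p = 0.0734 in limma), and it passed the threshold without WT mouse 1 at 1.05. Rpl23a, at the tunnel exit where the signal recognition particle docks, was at 9.98, 8.97, 8.46 and 9.13 in WT and at 10.04, 9.46, 9.41 and 9.28 in KO islets. The difference of 0.41 (standard error 0.32) did not pass with all mice, and without WT mouse 1 it passed at 0.69. For both Rpl37a and Rpl23a, WT mouse 3 was the lowest and KO mouse 1 the highest of all mice. Leaving out either of these mice makes the difference smaller in both genes. Rpl37 was at 4.43, 3.05, 3.72 and 3.41 in WT and at 4.90, 3.16, 4.04 and 4.01 in KO islets, a difference of 0.37 (standard error 0.40).

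Copies of ribosomal protein genes, some of which stand in for the common form in testis or muscle, were set beside their partners. Of the 7 copies, 1 (Rpl39l) was higher and none lower, where 1.28% of all genes were higher and 1.17% lower. The median log2 fold change of the copies was 0.17. All 7 had a positive sign, as had 11089 of all 22180 genes. Rpl6l and Rpl32l, whose symbols also mark them as copies, were outside that list, at −0.08 and 0.13, and did not pass. Rpl22l1, the partner of the RNA-binding protein Rpl22, was at 4.01, 4.56, 5.13 and 5.04 in WT and at 5.80, 4.55, 4.59 and 5.17 in KO islets. Its difference of 0.34 (standard error 0.35) did not pass, with KO mice 1 and 4 above the WT range and KO mice 2 and 3 within it. Rpl22 was at 5.50, 4.87, 5.36 and 5.01 in WT and at 5.16, 5.28, 5.24 and 5.49 in KO islets, a difference of 0.11 (standard error 0.21).

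Rps4l, a copy of the X-linked Rps4x, was at 5.04, 4.45, 3.51 and 4.68 in WT and at 5.10, 4.98, 4.65 and 4.26 in KO islets, a difference of 0.33 (standard error 0.34). Rps4x was at 9.07, 7.98, 7.74 and 8.24 in WT and at 8.58, 8.26, 8.56 and 8.01 in KO islets, a difference of 0.09 (standard error 0.30). In both, WT mouse 3 was the lowest of the 8 mice. Rps27l, which p53 induces in human and mouse cells, was at 6.81, 5.38, 5.04 and 5.79 in WT and at 6.25, 5.83, 5.85 and 5.42 in KO islets, a difference of 0.09 (standard error 0.37). Its partner Rps27 was at 2.22, 2.07, 4.25 and 1.90 in WT and at 2.76, 3.22, 3.51 and 1.46 in KO islets, a difference of 0.13 (standard error 0.58), the largest standard error of the 67 genes.

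Rpl7l1, which acts in the assembly of the large subunit, was at 5.15, 4.54, 4.47 and 4.18 in WT and at 5.10, 5.18, 4.45 and 4.15 in KO islets, a difference of 0.13 (standard error 0.30). Rpl7 was at 9.42, 8.63, 7.80 and 8.41 in WT and at 9.18, 8.83, 8.60 and 8.50 in KO islets, a difference of 0.21 (standard error 0.33). Neither pair member separated the genotypes. Rpl3l, the muscle form of Rpl3, was below the gauge in all mice, at 2.08, 2.09, 2.53 and 1.95 in WT and at 2.51, 2.43, 2.07 and 2.30 in KO islets (difference 0.17, standard error 0.21).

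The 3 genes with the brightest probe set, taking 1 probe set of its own per gene, did not separate the genotypes. Brightness depends on the probes as well as on the mRNA, so it does not order the genes by abundance. Rpl41, the smallest protein of the ribosome, was at 11.42, 11.09, 10.99 and 11.27 in WT and at 11.46, 11.34, 11.08 and 11.34 in KO islets. Its difference was 0.11 (95% confidence interval −0.32 to 0.53). Rps6, which is phosphorylated by the S6 kinases, was at 11.63, 10.94, 10.47 and 11.10 in WT and at 11.07, 11.24, 10.99 and 10.99 in KO islets. Its difference was 0.04 (95% confidence interval −0.53 to 0.60), and the SD was 0.48 in WT against 0.12 in KO islets.

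Rplp1 belongs to the P stalk, the arm of the large subunit that recruits elongation factors. It was at 11.92, 10.53, 10.50 and 11.18 in WT and at 11.37, 11.58, 11.17 and 10.93 in KO islets, a difference of 0.23 (95% confidence interval −0.50 to 0.96). The other stalk proteins, Rplp0 at 0.07 and Rplp2 at −0.09, did not pass either. At the low end, 5 genes stayed below the gauge in every mouse, among them Rpl3l and the 3 dimmest. Rpl10l, a testis copy of the X-linked Rpl10, was at 1.99, 1.73, 1.62 and 1.62 in WT and at 1.87, 1.62, 1.98 and 1.70 in KO islets. Rpl30 was at 2.67, 1.84, 1.99 and 2.15 in WT and at 2.01, 2.11, 2.08 and 1.94 in KO islets. Rps29 was at 3.05, 1.78, 1.37 and 2.14 in WT and at 2.42, 2.61, 2.03 and 2.05 in KO islets. The differences of these genes, 0.05, −0.12 and 0.19, were all within 1 standard error of 0 (0.19, 0.22 and 0.34).

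A dim probe set of its own did not mean that a ribosomal protein gene was dim on every probe set. The annotation gave 57 further probe sets to a ribosomal protein gene together with pseudogenes or neighbors, and these may carry signal of more than 1 gene. Of the 67 genes, 20 had such a shared probe set. Of the 16 genes at or below the gauge, 7 had one, and in 4 (Rpl27a, Rpl30, Rps16 and Rps27) the shared probe set had a mean level of at least 8. For Rpl30 the own probe set averaged 2.1 and the brightest shared one 10.04, with log2 fold changes of −0.12 and 0.24, while another shared one at a level of 3.10 was at −0.80 (standard error 0.38). Of the 57 shared probe sets, none was lower and 1 was higher in KO islets, where 1.59% of all probe sets were lower and 1.90% higher. The higher one was a dim probe set listed for Rpl24 and Zbtb11 (mean level 2.72, log2 fold change 0.56, standard error 0.20). The median of the 57 was 0.10. Of the 18 with a mean level of at least 8, none passed, 17 had a positive sign and the median was 0.22. Among all 327 genes at that level 173 had a positive sign. A further 12 ribosomal protein symbols stood only on shared probe sets and so were not among the 67.

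For Rpl5 and Rpl34 the shared probe sets were set beside the own ones. The probe set listed for Rpl5 and its pseudogene Rpl5-ps2 was at 5.0, 4.35, 4.34 and 4.93 in WT and at 3.22, 5.21, 4.29 and 4.50 in KO islets. KO mouse 1 was the lowest and KO mouse 2 the highest of all mice. The log2 fold change was −0.35 (standard error 0.39, 95% confidence interval −1.21 to 0.52), of the same sign as that of the own probe set and without passing the threshold. The probe set listed for Rpl34 and Rpl34-ps1 was at 11.26, 10.38, 9.82 and 10.67 in WT and at 11.01, 10.94, 10.70 and 10.58 in KO islets. All KO values lay within the WT range, and the log2 fold change was 0.28 (standard error 0.30, 95% confidence interval −0.39 to 0.94), of the opposite sign to that of the own probe set. The probe set shared by Rps16 with a pseudogene also had the opposite sign (0.24, standard error 0.31), and the one shared by Rpl37a with a microRNA gene was at 0.09 (standard error 0.21). The differences between own and shared probe sets were not tested.

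**Figure D3:**
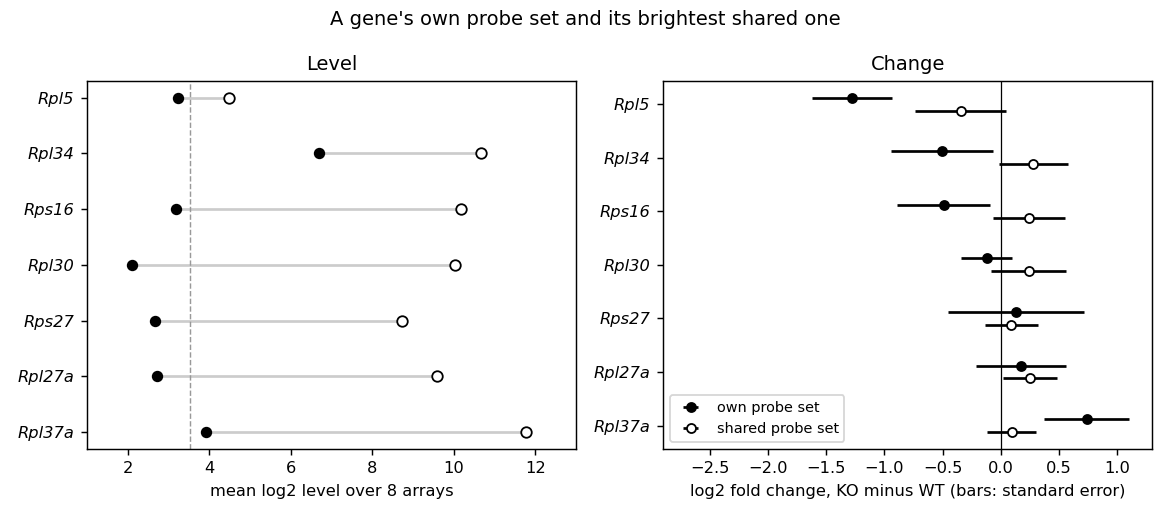
Mean log2 level over 8 arrays (left) and log2 fold change, KO minus WT, with its standard error (right) for 7 genes on their own probe set (filled circles) and on their brightest shared probe set (open circles), with the gauge of 3.52 as a dashed line. The own probe set of Rpl5 at −1.28 lies far from 0 and its shared one at −0.35 does not. Of the 7 genes shown, from the 20 with a shared probe set, the signs differ for Rpl34, Rps16 and Rpl30. They also differ for genes not shown, among them Rpl39, Rps3, Rplp2 and Rpl15.

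Several probe sets of 1 gene could also disagree. The 67 genes had 108 probe sets of their own, of which 101 held distinct values, and 24 genes had more than 1 distinct probe set. In 11 of the 24 all had the same sign. Among the 101, 2 were lower and 3 higher, where 1.59% of all probe sets were lower and 1.90% higher. The 3 higher ones were those of Rpl39l and dimmer probe sets of Rpl9 (mean level 2.95, log2 fold change 0.60) and Rps18 (mean level 3.57, log2 fold change 0.57). The brightest probe sets of Rpl9 and Rps18, at −0.25 and 0.06, did not pass. The next probe sets of Rpl3 were at −0.09 and −0.24, closer to 0 than the −0.44 of its brightest one.

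The bright ribosomal protein genes varied together from mouse to mouse. In WT mouse 1 the 39 genes with a mean level of at least 6 averaged 0.37 above their own means and in WT mouse 3 they averaged 0.36 below. WT mouse 1 was the highest of the 8 mice for 27 of the 39 genes (69.2%) and WT mouse 3 the lowest for 24 (61.5%), where 41.4% and 30.4% of all 2460 genes at that level had these patterns. KO mouse 1 was above the mean for 34 of the 39 genes, by 0.17 on average, and was the lowest of the 8 for 1 of them (2.56%). Among all 2460 genes KO mouse 1 averaged 0.19 below the mean and was the lowest for 32.8%. WT mouse 3 and KO mouse 1, the mice with the highest acinar levels, thus lay on opposite sides of the mean for these genes. The part of acinar RNA in the ribosomal protein values was not tested.

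**Figure D4:**
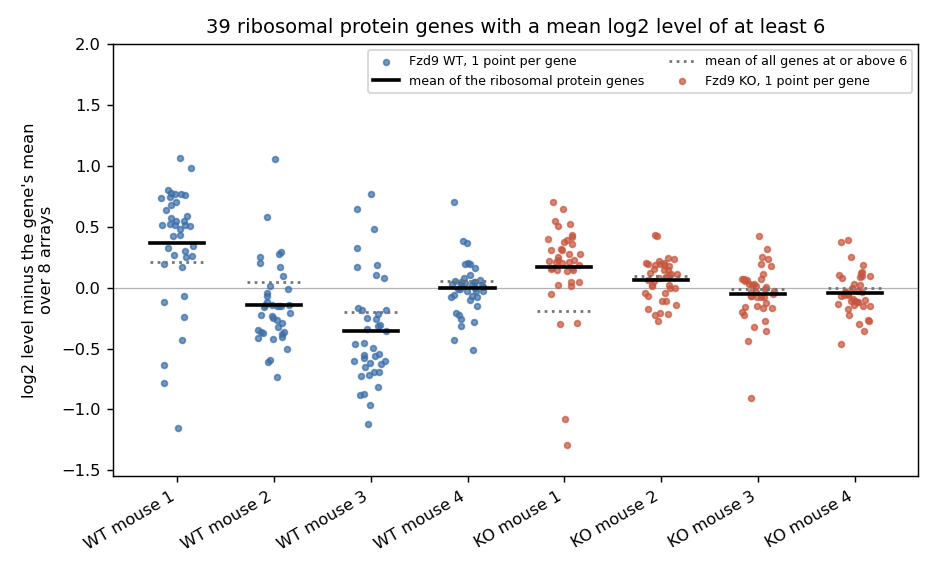
Log2 level minus the gene's mean over 8 arrays (y axis) in each mouse (x axis) for 39 ribosomal protein genes with a mean level of at least 6, 1 point per gene, with their mean as a solid line and the mean of all 2460 genes at that level as a dotted line. WT mouse 1 lies high and WT mouse 3 low, at 0.37 and −0.36, and KO mouse 1 is at 0.17 against −0.19 for all genes.

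The spread was wider in WT than in KO islets. The mean level of the 39 bright genes was 9.33, 8.82, 8.61 and 8.96 in WT and 9.13, 9.03, 8.92 and 8.92 in KO islets, with all KO means inside the WT range and SDs of 0.31 and 0.10. The genotype means differed by 0.07, KO being higher. The SD was larger in WT than in KO islets for 37 of the 39 genes, with medians of 0.50 and 0.21. Over all 2460 genes at that level it was larger in WT for 1574, with medians of 0.32 and 0.25. The difference in spread was not tested.

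The groups defined by role held no called gene beyond those named above. Across all genes 1.17% were lower and 1.28% higher. Of 13 proteins of the small subunit head, 11 were measured, none passed and the median was 0.06. Of 20 genes whose mutation causes Diamond-Blackfan anemia in humans, 15 were measured, with 1 lower (Rpl5), none higher and a median of 0.13. Rps19, the gene most often mutated in that disease, was at 0.17 (standard error 0.25). Of 4 ribosomal proteins with other kinds of symbol only Fau, which encodes a ubiquitin-like protein fused to a small subunit protein, was measured on a probe set of its own. It was at 10.31, 10.14, 10.03 and 10.01 in WT and at 9.84, 9.98, 10.03 and 10.01 in KO islets, a difference of −0.16 (standard error 0.17).

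Few genes that work with the ribosomal proteins passed the threshold. Beside this count and those that follow, 1.17% of all genes were lower and 1.28% higher. Of 20 other mRNAs with a TOP motif 18 were measured, none passed and the median was 0.04. Eef1a1 and Eef2, elongation factors among them, were at 0.08 (standard error 0.20) and 0.10 (standard error 0.18). Of 14 chaperones and importers of ribosomal proteins 13 were measured, none passed and the median was −0.13. Heatr3, which brings Rpl5 to the nucleus in human cells, was at 4.83, 4.57, 4.85 and 4.56 in WT and at 4.07, 4.92, 3.51 and 4.31 in KO islets. KO mouse 2 was the highest and the other KO mice the lowest, for a difference of −0.50 (standard error 0.29, unadjusted p = 0.113 in limma).

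Of 17 genes of the Mdm2 and p53 axis, to which the 5S complex with Rpl5 connects, 14 were measured, 1 was lower and none higher, with a median of 0.01. The lower gene was Btg2, an antiproliferative target of p53 that is also an early response gene. It was at 7.50, 8.80, 8.12 and 8.62 in WT and at 7.30, 7.55, 7.82 and 7.50 in KO islets, a difference of −0.72 (standard error 0.29) with WT mouse 1 inside the KO range. Mdm2 was at 0.01 (standard error 0.20) and Cdkn1a, which encodes the cell cycle inhibitor p21, at 0.03 (standard error 0.40).

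The proteins of the mitochondrial ribosome are a separate family that serves the mitochondrial genome. Of 71 genes, 1 was lower and 2 were higher, with a median of 0.01. Mrpl37 was at 6.64, 6.61, 6.51 and 6.53 in WT and at 5.68, 6.34, 5.63 and 6.30 in KO islets. The difference was −0.58 (standard error 0.22) without overlap. The KO values all lay below the WT values in 2 of the 71 genes and above them in 1, Mrps14. Of all genes, 1.11% and 1.25% had these patterns. Mrps14 at 0.65 (standard error 0.21) and Mrpl20 at 0.73 (standard error 0.29) were the higher ones, and Mrps14 had a mean level of 2.1, below the gauge.

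Introns of ribosomal protein genes also hold small nucleolar RNAs, which guide the modification of ribosomal RNA. Of 45 such genes that RefSeq places inside 1 of the 67 genes, 14 had a probe set of their own, with 1 lower, none higher and a median of −0.06. The lower one was Snord73a, inside Rps3a1 and with a mean level of 3.49 just below the gauge, at 4.80, 4.03, 3.76 and 3.38 in WT and at 2.43, 4.20, 2.30 and 3.02 in KO islets. KO mouse 2 lay inside the WT range and the other KO mice below it, a difference of −1.01 (standard error 0.44). Its host Rps3a1 was at 0.04 (standard error 0.34), and Snord73b, inside the same gene, was at 0.09 (standard error 0.54).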

How the data were processed

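The members and gene lists were chosen with earlier results of these data known. The authors deposited log2 expression values made with RMA from Affymetrix Mouse Gene 2.1 ST arrays, 1 array per mouse. RMA and Partek stand in the submitters' processing notes with no version, and those notes give no genome build. The start windows shown above are on GRCm38.p6. All 8 arrays were used as deposited, with no filter and no added normalization, and the number of arrays limits the precision. Array medians lay between 2.90 and 3.17. Probe sets were named through the platform annotation, with symbols updated through Entrez ID for 23328 of them, none of which changed. Of 41345 probe sets, 23521 name 1 gene, 1820 several and 16004 none. RMA does not remove probes that match pseudogenes, so a probe set of a ribosomal protein gene may carry signal of a copy.

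Differences, KO minus WT, came from limma 3.58.1 (R 4.3.3), with Benjamini-Hochberg adjustment over all probe sets. Exact two-sided permutation tests were run for 4 genes. These were Rpl34 and the genes past the threshold on the same values, Rpl5, Rps23 and Rpl39l. Lists were described by counts and medians, without a set test. The steps were tested on simulated data with 200 changed probe sets. Values in every mouse were given for Rpl5, Rpl34, genes past the threshold, the 5 lowest and 5 highest fold changes, the 3 brightest and 3 dimmest genes and the pairs of copies. Mouse numbers recur in both genotypes but belong to different mice and were not used to pair them. Small nucleolar RNA genes were placed inside host genes by position without strand, since the table used here gives none. Protein sequences were not used here. The alternatives were limma with a trend, robust statistics or array weights, the methods' t-test, quantile, median and cyclic loess normalization, limits on level, averaging the own probe sets of a gene, the mouse number as a block and leaving out mice. Shared probe sets and the limit at the gauge were added after seeing the data.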

Additional observations from a re-analysis of the deposited data

Results flagged for a closer look

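In 6 of the 134 groups of 4 mice formed by 67 genes and both genotypes, 1 mouse lay apart from the other 3, where 6.7 are due by chance at 1 in 20. Rpl13 in WT mouse 1 was at 10.46, above the 9.91 to 10 of the other WT mice. Rplp2 in WT mouse 2 was at 3.88, above 2.85 to 3.00. Rps27 in WT mouse 3 was at 4.25, above 1.9 to 2.22. In KO mouse 1, Rps13 was at 9.90, above the 9.05 to 9.11 of the other KO mice, and Rps20 was at 4.52, above 3.19 to 3.32. Rps7 in KO mouse 3 was at 5.89, above 5.45 to 5.52. All 6 values were high for their genotype, and none of these genes passed the threshold.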

How the results depend on the processing

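Rpl5 and Rps23 passed the threshold under each alternative run on them, at −0.81 to −1.45 and −0.94 to −1.38. The level limit of 6 left both out, and averaging own probe sets left their values unchanged. The shared probe set of Rpl5 did not pass, at −0.35 (standard error 0.39). The count past the threshold was 0 of 39 genes at a mean level of at least 6, 4 with the mean of all own probe sets (Rpl37a joined at 0.73), and 2 to 5 when 1 mouse was left out. The 5 came without WT replicate 1, with Rpl3 at −0.90, Rpl23a at 0.69 and Rpl37a at 1.05 joining and Rpl39l lost. No ribosomal protein gene passed adjustment in any alternative. The median ran from 0.0044 to 0.24 when 1 mouse was left out, was −0.07 without WT mouse 3 and KO mouse 1, and 0.11 for the 51 genes above the gauge. The mean difference ran from −0.01 to 0.18 and was −0.07. Rpl39l lost its call with array weights, at 0.67, and with the methods' t-test.

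The mouse number as a replicate block kept the count at 3, ended the call of Rpl39l (0.87, unadjusted p = 0.0629 in limma) and brought in Rpl37a (0.73). Same-numbered mice correlated at −0.10, 0.02, 0.07 and 0.24, and mice with different numbers at −0.22 to 0.22. So few values cannot tell whether the mice were paired, and the labels state no pairing.

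Of 486 combinations of 25 genes and alternatives, 437 kept their call and direction and 35 changed sign, all in 13 genes that did not pass with all mice. Without WT mouse 3 and KO mouse 1 the values were 0.0325 (Rpl3), −0.0147 (Rpl10l), −0.093 (Rps29), −0.15 (Rps6), −0.0108 (Rpl41), −0.18 (Rpl7), −0.0312 (Rpl7l1), −0.16 (Rps4x), −0.092 (Rps4l) and −0.29 (Rps27l). Quantile normalization gave −0.0105 for Rpl10l and −0.011 for Rps6, and cyclic loess −0.0037 and −0.0083. Other probe sets gave −0.27 (Rplp1, with −0.0226 for the mean of its own), −0.0156 (Rpl41) and −0.0505 (Rpl7). Leaving out 1 mouse gave ranges of −0.009 to 0.14 (Rpl10l), −0.23 to 0.0467 (Rpl30), −0.0465 to 0.51 (Rps29), −0.15 to 0.23 (Rps6), −0.0432 to 0.50 (Rpl7), −0.0196 to 0.32 (Rpl7l1), −0.078 to 0.36 (Rps4x), −0.13 to 0.67 (Rps27) and −0.15 to 0.44 (Rps27l). The cause of these changes was not tested.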
